A study of Homo sapiens with 6 samples.

Results

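The microRNA clusters of 14q32 and 19q13 were examined in the human cell line SUM159, which derives from a triple-negative breast carcinoma, after exposure to the DNA-demethylating drug decitabine. Members were the features of the deposited array table that carried a single MIR gene symbol with a number of either cluster, whatever the letter or copy suffix. This gave 98 of 48226 features, which stood for 94 of 14884 named genes. Of these, 52 features (51 genes) carried numbers of the 14q32 cluster and 46 features (43 genes) numbers of the 19q13 cluster. The naming rule itself uses no measured value. Of the 44 numbers of the 14q32 list 43 had a named feature, and all 17 of the 19q13 list did. MIR433 and MIR520B were not analysed here.

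The arrays fell into 2 groups of 3. Cells of the decitabine group were given 1 µM decitabine for 72 h with fresh medium each day, and cells of the untreated group were kept in control medium for 72 h. All cells were of the same line and grew in the same serum-containing medium with insulin and hydrocortisone. The labels do not say whether the 3 arrays of a group came from separate cultures, so a p-value here measures the spread among these arrays alone, which may be technical, and they do not mention drug solvent in the control medium. Total RNA was labelled with biotin for a gene expression array, and no separate measurement of short RNA is described in the labels, so a feature named for a microRNA gene may report its primary transcript, its hairpin or the mature microRNA, which cannot be told apart. In a bulk sample, fewer cells with a transcript and less transcript per cell cannot be told apart either.

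The 14q32 cluster lies in the imprinted DLK1-DIO3 region, where the long noncoding RNA MEG3 and the microRNAs downstream of it are normally expressed from the maternal chromosome and are controlled by DNA methylation of an intergenic region. The 19q13 cluster is specific to primates, is normally expressed from the paternal chromosome in the placenta, and lies downstream of a CpG-rich promoter that is methylated in most other tissues. A microRNA is cut from a hairpin and guides Argonaute proteins to messages that pair with its seed, the bases from position 2 to 8.

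RefSeq (GRCh38.p14) held 167 mature sequences for 93 of the 94 genes, with 78 different seeds among 93 sequences of 14q32 and 34 among 74 sequences of 19q13. Some of these sequences are given below, each 5′ to 3′ with the seed in capitals. They were picked by seed, size of change or signal, so their likeness does not compare the clusters. The members from chromosome 19 that share the seeds AAGUGCU and AAAGCGC are shown first, because they include several of the largest decreases in that cluster.
hsa-miR-520a-3p: aAAGUGCUucccuuuggacugu
hsa-miR-520c-3p: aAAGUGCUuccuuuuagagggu
hsa-miR-520d-3p: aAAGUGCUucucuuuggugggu
hsa-miR-520e-3p: aAAGUGCUuccuuuuugaggg
hsa-miR-518b: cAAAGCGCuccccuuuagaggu
hsa-miR-518c-3p: cAAAGCGCuucucuuuagagugu
hsa-miR-518a-3p: gAAAGCGCuucccuuugcugga
hsa-miR-518d-3p: cAAAGCGCuucccuuuggagc
hsa-miR-526a-3p: gAAAGCGCuuccuuuuagagga
The next has another seed and is shown because MIR519D had the third largest decrease of the cluster.
hsa-miR-519d-3p: cAAAGUGCcucccuuuagagug
The members from chromosome 14 below include the largest increase, the largest decreases, and the RTL1 antisense member of highest signal, and the last 3 share the seed GGUUGUC.
hsa-miR-127-3p: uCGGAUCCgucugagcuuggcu
hsa-miR-539-5p: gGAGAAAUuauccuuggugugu
hsa-miR-431-5p: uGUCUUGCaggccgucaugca
hsa-miR-494-5p: aGGUUGUCcguguugucuucucu
hsa-miR-323b-5p: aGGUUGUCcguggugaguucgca
hsa-miR-410-5p: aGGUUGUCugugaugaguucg

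The hairpins of 19q13 were more alike than those of 14q32. In global alignments the median identity between 2 hairpins was 78.2% within the 19q13 cluster and 51.1% within the 14q32 cluster. At least 90% identity to another member was found for 21 of the 40 hairpins of 19q13 and for 4 of the 46 hairpins of 14q32 that RefSeq held. Signal of near-identical copies may be mixed on an array, so values of such members are uncertain. Their features did not all read alike. Mean log2 levels over the 6 arrays were 1.36 and 2.34 for MIR1185-1 and MIR1185-2, and 3.63 and 1.09 for MIR329-1 and MIR329-2. The pairs MIR516A1 and MIR516A2, MIR520G and MIR520H, and MIR1185-1 and MIR1185-2 were 98.9%, 96.7% and 97.7% identical. The annotation named both of a pair of features MIR512-2, and both of another pair MIR515-1, and within each of these pairs all 6 deposited values were identical. MIR544B met the naming rule, but RefSeq places it on chromosome 3, so it is counted among the 51 genes and left out of statements on position.

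Across the whole table, the arrays of replicate 1 stood apart from the others. The median over all features was 2.98, 2.40 and 2.37 in decitabine replicates 1, 2 and 3, against 3.03, 2.42 and 2.29 in untreated replicates 1, 2 and 3, on the deposited log2 scale. Arrays of the same replicate number also deviated together, so that a second fit, blocked by replicate number, is given beside the first. Of 7 measured genes listed as defining this mesenchymal-like line, the intermediate filament gene VIM had 8.81 ± 0.16 after decitabine and 9.36 ± 0.29 in untreated cells (log2, SD, n = 3 each), and the receptor tyrosine kinase genes AXL and EGFR fell, by 1.79 and 1.15 on the log2 scale (limma adjusted p = 0.00361 and 0.0195, and 0.00835 and 0.0521 when every feature was tested). VIM, ZEB1, CD44, FN1 and MSN did not pass, with changes of -0.55, -0.51, 0.27, 0.19 and 0.29. Thus 2 of the 7 fell and none rose, where 1.02% of all genes fell and 2.01% rose. With the block 3 fell, as ZEB1 also passed (limma adjusted p = 0.0438), where 5.37% of all genes fell. The estrogen receptor gene ESR1, which such lines lack, had 1.86 ± 0.43 and 2.03 ± 0.35. The progesterone receptor gene PGR had 2.19 ± 0.67 and 1.91 ± 0.37, and both lay below the median feature on every array. These belong to 6 measured luminal and receptor genes, which were not all dim. KRT18 had 7.91 after decitabine and 7.72 in untreated cells, and GATA3 5.54 and 5.65, above the median feature on every array. KRT19 had 3.54 and 2.91, and FOXA1 2.67 and 2.75. None of the 6 passed, against 3.03% of all genes, and with the block KRT19 rose, where 7.79% of all genes rose. Of 14 listed markers of placental trophoblast, where the 19q13 cluster is normally expressed, 7 were measured. None passed the test, against 3.03% of all genes. In the blocked fit 1 of the 7 rose, where 7.79% of all genes rose. It was PEG10, which had high signal in both groups, 8.70 after decitabine and 8.13 in untreated cells. TFAP2C had 5.11 and 4.73, CSH1 3.93 and 3.36, and PSG1 2.00 and 1.47. Means were lower after decitabine for PSG3 (2.09 and 2.34) and GCM1 (2.09 and 2.37), and nearly equal for ELF5 (1.92 and 1.92).

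Most members had low signal on all 6 arrays. The median over the 51 genes of 14q32 was 1.46, 1.27 and 1.16 in decitabine replicates 1, 2 and 3, against 1.76, 1.36 and 1.27 in the untreated replicates. Over the 43 genes of 19q13 it was 1.55, 1.16 and 1.04 after decitabine, against 1.71, 1.21 and 1.11 in untreated cells. In each group the array of replicate 1 was the highest, for either cluster, as it was for all features. On every array 35 of the 51 genes of 14q32 and 35 of the 43 genes of 19q13 lay below that array's median feature. Only MIR665, MIR127, MIR329-1, MIR539, MIR134 and MIR412 lay above it on all 6 arrays, and no member of 19q13 did. No measure of background was used, and features differ in probe sequence, so these positions describe signal and do not rank abundance.

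**Figure D1:**
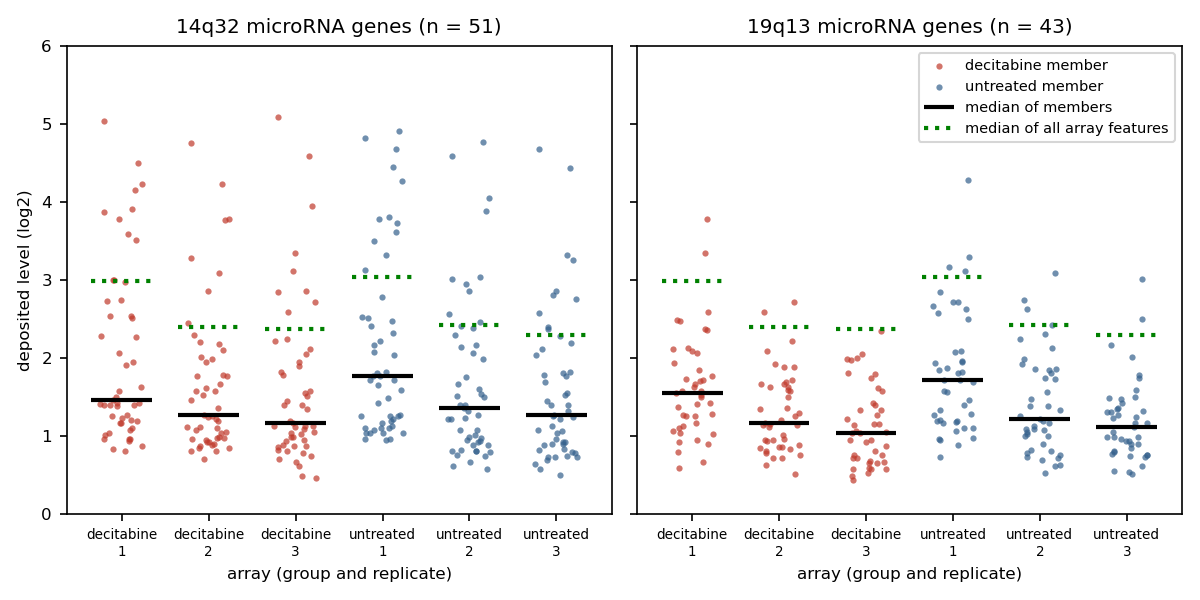
Deposited log2 level (vertical axis) of every member gene of 14q32 (left panel) and 19q13 (right panel) on each of the 6 arrays, with decitabine arrays left of untreated arrays; each point is 1 gene, black lines are medians of the members and dotted green lines medians of all array features. Member medians lie between 1.04 and 1.76, below the array medians of 2.29 to 3.03, and are highest in the replicate 1 array of each group.

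No member of either cluster rose or fell after decitabine. In the limma fit over all 14884 genes, 0 of 51 genes of 14q32 and 0 of 43 genes of 19q13 had an adjusted p under 0.05 (Benjamini-Hochberg), against 3.03% of all genes (2.01% rose and 1.02% fell). None of the 94 had an unadjusted p under 0.05 either, where 13.9% of all genes did. The lowest adjusted p was 0.710 in the 14q32 cluster and 0.423 in the 19q13 cluster. In the blocked fit 0 of the 94 passed against 13.2% of all genes (7.79% rose and 5.37% fell), and the lowest adjusted p was 0.0632. When every feature was tested, 0 of the 94 passed, against 1.2% of all features. With the block 6 members had an unadjusted p under 0.05: MIR431, MIR494 and MIR539 of 14q32, and MIR518B, MIR518C and MIR519D of 19q13. They are 6.38% of the members, against 28.3% of all genes, 12.4% of the other microRNA genes and 14.5% of that dimmer set.

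The decitabine and untreated values overlapped for all 94 genes. Groups that did not overlap were found for 20.1% of all genes (8.74% lower and 11.3% higher after decitabine), for 5.83% of the 978 other microRNA genes, and for 5.67% of the dimmer 50% of all genes. The difference between the clusters and these other sets was not tested.

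The sizes of change that the data do not exclude were read from the 95% intervals of the fit, which are not adjusted for the number of genes. Without a block the interval lay within a 2-fold change in either direction (1 on the log2 scale) for 38 of the 51 genes of 14q32 and 33 of the 43 genes of 19q13. With the block it did so for 50 and 42 of them. MIR323B and MIR518B were the exceptions under the block, with intervals of -1.37 to 0.17 and -1.51 to -0.19. Without a block the widest reach downward was that of MIR518B, to -2.25, and the widest reach upward that of MIR377, to 1.37. For the members whose interval reaches past 1 or -1 a 2-fold change was not excluded. Calls rest on adjusted p, so an interval inside these limits does not mean that a 2-fold change would have been called. The absence of calls does not show that levels were equal.

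**Figure D2:**
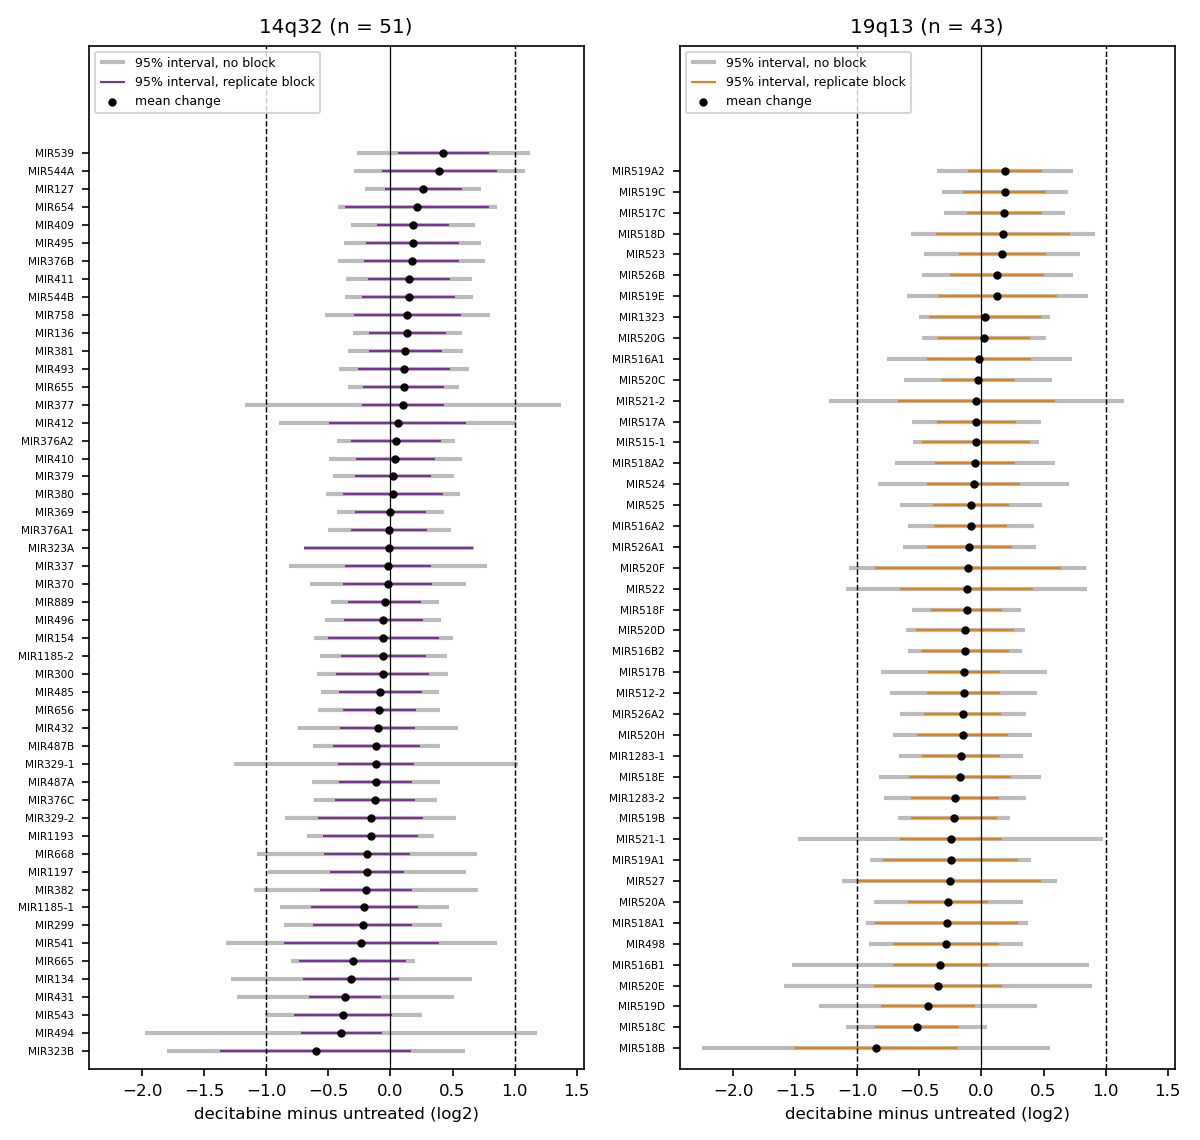
Change of each member gene (horizontal axis, decitabine minus untreated, log2) with its 95% interval from the fit without a block (thick grey) and with the replicate number as a block (thin, coloured), sorted by change; dashed lines mark a 2-fold change. Points run from -0.60 to 0.43 in 14q32 and from -0.85 to 0.19 in 19q13, and under the block the intervals of MIR323B and MIR518B alone cross a dashed line.

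The median change was -0.05 over the 14q32 genes and -0.12 over the 19q13 genes, against -0.02 over all genes and -0.06 over the other microRNA genes (log2). In the pairs of replicates 1, 2 and 3, it was -0.06, 0.00 and 0.00 in 14q32 and -0.28, -0.12 and -0.11 in 19q13. The mean was lower after decitabine for 30 of the 51 genes of 14q32 and for 34 of the 43 genes of 19q13, compared with 52.3% of all genes and 60.2% of the other microRNA genes. Without the array of untreated replicate 1 the median change was 0.10 in 14q32 and 0.06 in 19q13, while that of all genes was 0.12. The 14q32 median was -0.13, -0.03 and 0.03 when decitabine replicate 1, 2 or 3 was left out, -0.14 without untreated replicate 3, and -0.005 when replicate 1 was left out of both groups, where the 19q13 median was -0.11 and that of all genes -0.005. The 19q13 median was -0.21, -0.07 and -0.06 when decitabine replicate 1, 2 or 3 was left out, and -0.22 without untreated replicate 3. All 3 pairs were lower for 5 genes of 14q32 and 10 genes of 19q13, against 21.8% of all genes, and all 3 were higher for 5 and 3, against 22.9%.

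**Figure D3:**
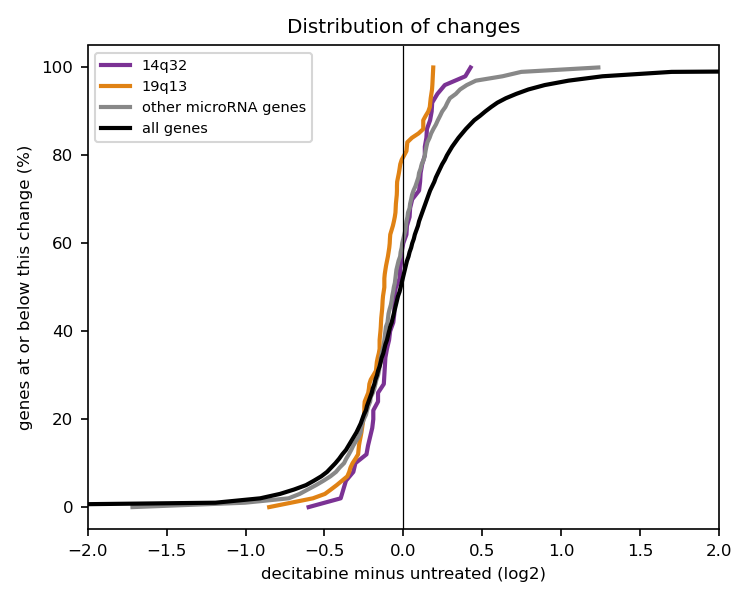
Percentage of genes (vertical axis) at or below a given change (horizontal axis, decitabine minus untreated, log2; cut at -2 and 2) for 14q32, 19q13, the other microRNA genes and all genes. The curves cross 50% at -0.05, -0.12, -0.06 and -0.02, and both clusters end well inside the range of all genes, which ran from -3.62 to 6.16.

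Differences between replicate numbers were larger than those between the groups for most members. The mean of both replicate 1 arrays differed from the mean of the other 4 arrays by a median of 0.32 on the log2 scale over the 94 genes, while the groups differed by a median of 0.14. The first gap was the larger for 79 of the 94 genes (84.0%) and for 63.6% of all genes. In sets of lower signal the share was close to that of the members. It was 79.6% in the other microRNA genes and 82.5% in the dimmer set of genes named above. Replicate 1 was the higher for all 43 genes of 19q13 and 46 of the 51 of 14q32 (90.2%). The same held for 73.5% of all genes, 88.8% of the other microRNA genes and 92.6% of that dimmer set. Same-numbered arrays also held identical values in 7, 7 and 4 of the 98 member features in pairs 1, 2 and 3. These are 7.14%, 7.14% and 4.08%, against 6.44%, 7.94% and 8.28% of all features. MIR369 was an extreme case, with 0.96, 0.81 and 0.82 in replicates 1, 2 and 3 of both groups.

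Among the 14q32 genes between MEG3 and MEG8, several lie opposite RTL1, a gene derived from a retrotransposon. Features of antisense partners cannot be parted where the labelling does not keep strand, which the labels do not state. MIR127, the best known of these RTL1 antisense microRNAs, had 5.03, 4.75 and 5.09 in decitabine replicates 1, 2 and 3, against 4.82, 4.59 and 4.67 in the untreated replicates. Each decitabine value was above its same-numbered untreated value, but decitabine replicate 2 lay below untreated replicate 1, so the groups overlapped. The change was 0.26 (SE 0.20, limma adjusted p = 0.760, and 0.242 with the block). MIR431, another RTL1 antisense microRNA, had 2.97, 1.98 and 1.94 after decitabine and 3.32, 2.38 and 2.28 in untreated cells. It was lower in each pair by 0.34 to 0.40, a change of -0.36 (SE 0.38, adjusted p = 0.898, and 0.106 with the block). MIR665 had 4.15, 4.23 and 4.58 after decitabine and 4.68, 4.76 and 4.43 in untreated cells, with pair 3 going against pairs 1 and 2 (change -0.30, SE 0.22, adjusted p = 0.710). The 7 genes of this stretch had a median change of -0.02.

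The 21 genes from MIR379 to MIR1185-2 had a median change of -0.06 and a range from -0.40 to 0.22. MIR494 marked the lower end, with 3.59, 1.58 and 1.40 after decitabine and 3.80, 2.16 and 1.80 in untreated cells. Both replicate 1 values stood well above the other 4, and every decitabine value was below its same-numbered untreated value (change -0.40, SE 0.68, adjusted p = 0.981, and 0.113 with the block). MIR543 had 1.46, 0.87 and 1.44 after decitabine and 2.07, 1.40 and 1.44 in untreated cells, equal in pair 3 (change -0.38, SE 0.27, adjusted p = 0.718). MIR654 was at the upper end through replicate 1, with 2.99, 2.01 and 2.59 after decitabine and 2.16, 2.41 and 2.37 in untreated cells. Its change was 0.22 (SE 0.28, adjusted p = 0.947) with all arrays and -0.09 with both replicate 1 arrays left out. MIR329-1 had 4.22, 3.78 and 2.71 after decitabine and 4.26, 4.05 and 2.75 in untreated cells, so that replicate 3 was the low array of either group and the groups differed by -0.12 (SE 0.49, adjusted p = 1.00). MIR329-2, whose hairpin is 94.0% identical to that of MIR329-1, changed by -0.16.

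The 21 genes from MIR381 to MIR656 also had a median change of -0.06, with a range from -0.60 to 0.43 that held both extremes of the 14q32 cluster. MIR539 showed the largest increase, with 3.87, 3.28 and 2.84 after decitabine and 3.13, 3.01 and 2.57 in untreated cells. All 3 pairs were higher, by 0.27 to 0.74, while decitabine replicate 3 stayed below untreated replicates 1 and 2 (change 0.43, SE 0.30, adjusted p = 0.710, and 0.124 with the block). MIR544A had 1.62, 1.76 and 1.05 after decitabine and 1.59, 0.88 and 0.78 in untreated cells, a change of 0.39 (SE 0.30, adjusted p = 0.754) that came mainly from pair 2. MIR409 had 1.94, 1.66 and 1.51 after decitabine and 1.71, 1.53 and 1.32 in untreated cells, a change of 0.18 (SE 0.22, adjusted p = 0.936) seen in all 3 pairs.

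At the other extreme, MIR323B had 2.27, 1.78 and 1.57 after decitabine and 3.73, 1.50 and 2.19 in untreated cells. Untreated replicate 1 was far above the other 5 values, and the change of -0.60 (SE 0.52, adjusted p = 0.826) became 0.03 without it. With both replicate 1 arrays left out the change of MIR323B stayed negative. MIR134, a microRNA studied for its part in the growth of dendritic spines in rodent neurons, had 3.91, 3.08 and 2.85 after decitabine and 4.44, 3.03 and 3.32 in untreated cells. Its change was -0.32 (SE 0.42, adjusted p = 0.953), and 0.11 without untreated replicate 1, but it stayed negative without both replicate 1 arrays. MIR412 had 4.49, 3.77 and 3.94 after decitabine and 4.90, 3.88 and 3.25 in untreated cells, with pair 3 opposite to pairs 1 and 2 (change 0.06, SE 0.41, adjusted p = 1.00, and -0.07 with quantile normalization).

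**Figure D4:**
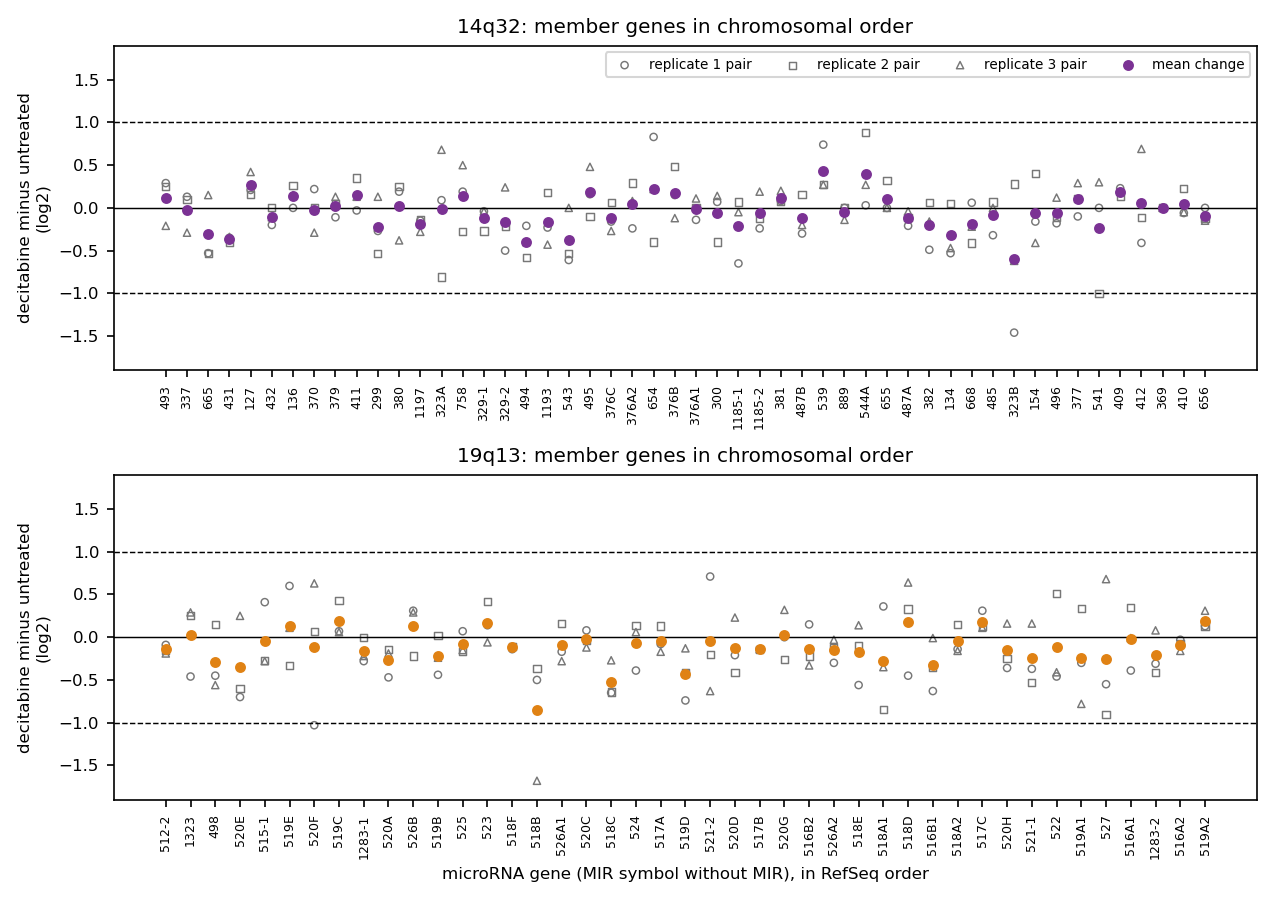
Change of each member (vertical axis, decitabine minus untreated, log2) in RefSeq order along the 14q32 (top) and 19q13 (bottom) clusters, with filled points for the mean and open circles, squares and triangles for the pairs of replicates 1, 2 and 3; dashed lines mark a 2-fold change. Means stay between -0.85 and 0.43, and the open points furthest out belong to 1 pair each, as for MIR323B in pair 1 and MIR518B in pair 3.

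In the 19q13 cluster the largest decreases were those of MIR518B and MIR518C, whose 3′ microRNAs share the seed AAAGCGC. MIR518B had 3.78, 2.72 and 1.33 in decitabine replicates 1, 2 and 3, against 4.28, 3.09 and 3.01 in the untreated replicates. All 3 pairs were lower, but pair 3 differed by -1.68 and pairs 1 and 2 by -0.50 and -0.37, and decitabine replicate 1 was above untreated replicates 2 and 3. The change was -0.85 (SE 0.61, limma adjusted p = 0.712, and 0.0981 with the block), and -0.21 without decitabine replicate 3, -0.44 without untreated replicate 1 and -1.44 without decitabine replicate 1. MIR518C had 2.06, 1.67 and 1.74 after decitabine and 2.71, 2.31 and 2.01 in untreated cells. Decitabine replicate 1 alone lay inside the untreated range (change -0.52, SE 0.25, adjusted p = 0.423, and 0.0632 with the block). The 6 genes that share this seed had a median change of -0.19, with 5 lower and MIR518D higher. MIR518D had 1.27, 1.15 and 2.00 after decitabine and 1.72, 0.82 and 1.36 in untreated cells (change 0.17, SE 0.32, adjusted p = 0.984), and MIR518A2 had 2.36, 1.88 and 2.34 after decitabine and 2.50, 1.73 and 2.50 in untreated cells (change -0.05, SE 0.28, adjusted p = 1.00).

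The seed AAGUGCU, which the miR-302 and miR-372 microRNAs of pluripotent cells also carry, was shared by MIR520A, MIR520C, MIR520D and MIR520E. All 4 had lower means after decitabine, with a median change of -0.20, and medians of -0.34, -0.28 and 0.06 in pairs 1, 2 and 3, so that pair 3 went the other way. MIR520E had 2.59, 1.25 and 1.57 after decitabine and 3.29, 1.85 and 1.32 in untreated cells (change -0.35, SE 0.54, adjusted p = 0.972). Its change was 0.22 without untreated replicate 1, but stayed negative without both replicate 1 arrays. MIR519D had 2.37, 1.71 and 1.61 after decitabine and 3.11, 2.13 and 1.74 in untreated cells. It was lower in each pair, by 0.13 to 0.74, although decitabine replicate 1 lay above untreated replicates 2 and 3 (change -0.43, SE 0.38, adjusted p = 0.835, and 0.136 with the block).

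The 4 genes that share the seed AAGUGCA (MIR519A1, MIR519A2, MIR519B and MIR519C) had a median change of -0.02, with 2 higher and 2 lower. The brighter feature of MIR519A2 had 1.84, 1.69 and 1.42 after decitabine and 1.71, 1.56 and 1.11 in untreated cells (change 0.19, SE 0.24, adjusted p = 0.945), while its other feature changed by -0.04. MIR519C had 0.95, 0.96 and 0.57 after decitabine and 0.88, 0.53 and 0.51 in untreated cells (change 0.19, SE 0.22, adjusted p = 0.932). These 2 genes had the largest increases of the cluster, and the groups overlapped for both. The largest seed group was that of 5′ microRNAs with UCUAGAG, carried by 11 genes, whose changes ran from -0.25 to 0.19 with a median of -0.12. It includes MIR523, with 1.42, 1.14 and 0.67 after decitabine and 1.28, 0.72 and 0.73 in untreated cells (change 0.17, SE 0.27, adjusted p = 0.978). The 4 genes with GCUUCCU (the MIR516 copies) had a median of -0.11 and all 4 means were lower. MIR516B1 among them had 2.09, 0.86 and 0.92 after decitabine and 2.72, 1.21 and 0.93 in untreated cells, and its change of -0.33 (SE 0.52, adjusted p = 0.974) became 0.22 without untreated replicate 1. With both replicate 1 arrays left out the change of MIR516B1 stayed negative. The 3 MIR517 genes share the 3′ seed UCGUGCA and had a median of -0.04. MIR517C was the highest of them, with 1.28, 0.88 and 0.87 after decitabine and 0.97, 0.75 and 0.76 in untreated cells (change 0.18, SE 0.21, adjusted p = 0.927).

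The other 19q13 members of higher signal were close to equal in means. MIR512-2, at the start of the cluster, had 2.48, 2.59 and 1.97 after decitabine and 2.57, 2.74 and 2.16 in untreated cells (change -0.14, SE 0.26, adjusted p = 0.981). MIR521-2 had 3.34, 2.22 and 1.15 after decitabine and 2.63, 2.42 and 1.78 in untreated cells, and its pairs ran in opposite directions (change -0.04, SE 0.52, adjusted p = 1.00). MIR520F had 2.13, 1.92 and 2.05 after decitabine and 3.16, 1.85 and 1.42 in untreated cells (change -0.11, SE 0.41, adjusted p = 1.00). Without untreated replicate 1, the highest of its untreated values, the change was 0.40.

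In 14q32 the seed GGUUGUC joined MIR494, MIR323B and MIR410, with changes of -0.60 to 0.04 and pair medians of -0.21, 0.23 and -0.40. The 3 MIR376 genes with UCAUAGA had changes of -0.01 to 0.17, and the other feature of MIR376A1 changed by -0.20. None of the 9 seeds that at least 3 member genes of a cluster shared held a gene that passed the test.

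The array levels of members followed the base composition of their hairpins. Spearman's rho between the share of G and C in the hairpin and the mean level over the 6 arrays was 0.47 over 47 genes of 14q32 and 0.31 over 40 genes of 19q13, and 0.62 over 797 other microRNA genes. These points share the same 6 arrays, and genes are not independent replicates, so the values are descriptions. The median share of G and C was 41.7% in 14q32 and 44.7% in 19q13, against 49.4% in the other microRNA genes. Over each whole cluster change followed base composition less closely, with rho of -0.21 in 14q32 and -0.05 in 19q13. Within 14q32 rho was -0.64 from MIR381 to MIR656 (19 genes), -0.66 between MEG3 and MEG8 (6) and 0.10 from MIR379 to MIR1185-2 (21).

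**Figure D5:**
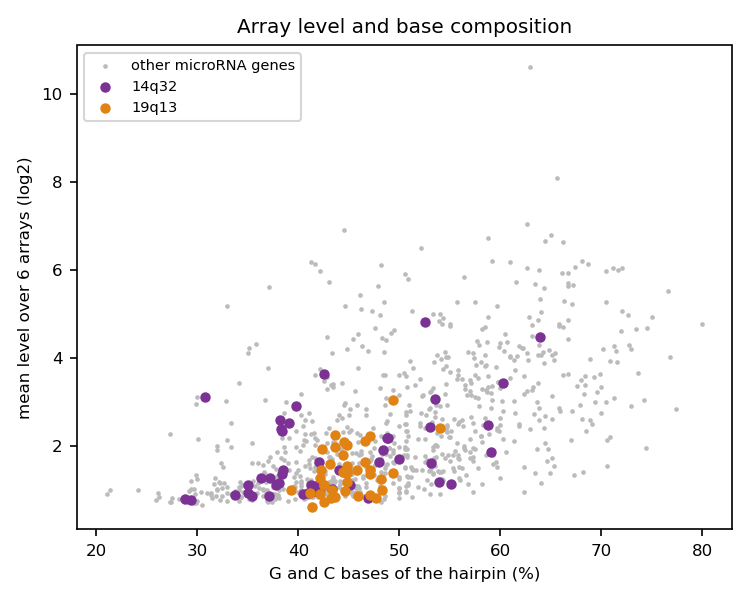
Mean deposited log2 level over the 6 arrays (vertical axis) against the percentage of G and C bases in the RefSeq hairpin (horizontal axis), with 1 point per microRNA gene of 14q32, 19q13 and the rest of the table. Members of the clusters lie mostly at lower G and C percentages and at low levels, within the cloud of the other microRNA genes.

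Genes beside the clusters were measured as well. Of 9 measured genes in the list of the 14q32 region, WARS1 fell and none rose, against 3.03% of all genes. WARS1, the cytosolic tryptophanyl-tRNA synthetase, lies outside the imprinted region and had 5.96, 5.88 and 6.05 after decitabine and 7.19, 7.63 and 7.80 in untreated cells (change -1.58, SE 0.23, limma adjusted p = 0.0109). The call was lost when decitabine replicate 2 (adjusted p = 0.0668) or untreated replicate 2 (0.0676) was left out. The imprinted genes of the region did not pass. MEG3, the noncoding RNA that starts upstream of the microRNAs, had 3.19, 2.77 and 3.26 after decitabine and 2.49, 2.77 and 2.96 in untreated cells (change 0.33, SE 0.23, adjusted p = 0.698). DLK1, a Notch-pathway ligand expressed from the paternal chromosome, had 2.42, 2.20 and 1.82 after decitabine and 2.60, 2.21 and 2.31 in untreated cells (change -0.23, SE 0.23, adjusted p = 0.895). RTL1 had 3.30, 4.05 and 3.53 after decitabine and 3.50, 3.94 and 3.42 in untreated cells, a change of 0.01 (SE 0.27, adjusted p = 1.00). MEG9, the noncoding RNA at the far end, had 4.54, 3.17 and 3.03 after decitabine and 4.45, 3.70 and 3.14 in untreated cells, a change of -0.18 (SE 0.47, adjusted p = 0.998). The dimmer features of MEG3, RTL1 and MEG9 changed by 0.41, 0.35 and 0.13, with overlapping groups, so the 2 features of MEG9 went opposite ways. The small nucleolar RNAs SNORD113 and SNORD114 and the gene MEG8 were not analysed here.

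Beside the 19q13 cluster, none of 10 measured genes passed, against 3.03% of all genes. With the block ZNF331 and ZNF808 rose and none fell, where 7.79% of all genes rose and 5.37% fell. ZNF331, an imprinted zinc finger gene on the near side of the cluster, had 5.56, 4.40 and 5.18 after decitabine and 4.20, 2.87 and 4.09 in untreated cells, with no overlap between the groups. Its change was 1.33 (SE 0.43, adjusted p = 0.180, and 0.00438 with the block). ZNF808, another zinc finger gene, had 4.89, 5.16 and 4.87 after decitabine and 4.24, 4.05 and 4.44 in untreated cells (change 0.73, SE 0.21, adjusted p = 0.127, and 0.0405 with the block). On the far side lie MIR371A, MIR372 and MIR373, which are expressed in pluripotent cells, and their changes were -0.22 (SE 0.31), -0.01 (SE 0.25) and -0.13 (SE 0.44), with adjusted p of 0.962, 1.00 and 1.00. The other feature of MIR371A changed by 0.16.

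Among factors that keep imprints or maintain methylation, 2 of 7 measured genes rose and none fell, where 2.01% of all genes rose and 1.02% fell. ZFP57, the zinc finger protein that holds methylation at imprinted regions, had 4.52, 4.88 and 4.69 after decitabine and 3.90, 3.43 and 3.29 in untreated cells (change 1.16, SE 0.24, limma adjusted p = 0.0434). Its other 6 features changed by 1.75 to 1.92, and 5 of them held identical values. ZFP57 missed the threshold with median centring (adjusted p = 0.0724), without untreated replicate 2 (0.196) or 3 (0.155), without decitabine replicate 1 (0.0789), 2 (0.184) or 3 (0.144), and when every feature was tested (0.0945), where its other 6 features passed with 0.0324 to 0.0400. The other was UHRF1, which directs DNMT1 to newly copied DNA (change 1.59, SE 0.26, adjusted p = 0.0179). It missed the threshold without decitabine replicate 2 (0.0928) or 3 (0.0860) or untreated replicate 2 (0.0772) or 3 (0.0669). DNMT1 itself, TRIM28 and CTCF had changes of 0.49, -0.14 and -0.16 and did not pass.

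Of 30 listed genes of microRNA processing 16 were measured: 1 rose, and none of the others passed, against 3.03% of all genes. LIN28B, which blocks the processing of let-7 precursors, had 3.63, 3.08 and 2.90 after decitabine and 2.08, 1.98 and 1.61 in untreated cells (change 1.31, SE 0.26, limma adjusted p = 0.0380). The call was lost without decitabine replicate 1 (adjusted p = 0.0949), 2 (0.128) or 3 (0.0792), without untreated replicate 2 (0.141) or 3 (0.138), without both arrays of replicate 1 (0.0626), and when every feature was tested (0.0778). DGCR8, the partner of DROSHA in the nuclear cut, had 4.13, 3.75 and 3.18 after decitabine and 3.75, 3.26 and 2.83 in untreated cells (change 0.41, SE 0.33, adjusted p = 0.789). XPO5, the exporter of precursor hairpins, had 7.66, 7.84 and 8.06 after decitabine and 7.81, 8.35 and 8.51 in untreated cells (change -0.37, SE 0.25, adjusted p = 0.674). With the block 5 rose and none fell, where 7.79% of all genes rose and 5.37% fell. The further 4 were GEMIN4, DDX5, TSN and SRRT, with changes of 0.53 to 0.77. DROSHA, DICER1 and AGO2 were not analysed here.

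Elsewhere in the genome, 4 of the 978 other microRNA genes fell and none rose, where 1.02% of all genes fell and 2.01% rose. MIRLET7A2, a copy of let-7a, had 2.51, 1.38 and 1.62 after decitabine and 3.42, 3.67 and 3.57 in untreated cells (change -1.72, SE 0.31, limma adjusted p = 0.0262). MIR4500 had 4.99, 5.60 and 5.06 after decitabine and 6.32, 7.02 and 6.90 in untreated cells (change -1.53, SE 0.27, adjusted p = 0.0260), and its call was lost with median centring (0.0838) and without decitabine replicate 1 (0.0783). MIR181B1 had 6.39, 6.06 and 6.09 after decitabine and 7.59, 7.51 and 7.76 in untreated cells (change -1.44, SE 0.20, adjusted p = 0.0102). Unlike every member of the 2 clusters, these genes had groups that did not overlap. The fourth was MIR548X2 (change -1.14, SE 0.24, adjusted p = 0.0488), whose call was lost with median centring (0.0595), with every feature tested (0.105), with features averaged (0.322), with the mean-variance trend (0.0656) and without untreated replicate 1 (0.0860). None of the 978 passed without decitabine replicate 2 or 3 or untreated replicate 2 or 3, where 34, 36, 32 and 43 had an unadjusted p under 0.05 in the limma fit. With the block 9 rose and 17 fell, where 7.79% of all genes rose and 5.37% fell.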

How the data were processed

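Expression was measured on 6 single-colour arrays of SUM159 cells, 3 per group, grouped by the treatment label. The authors deposited 1 table; the submitters' processing notes name the Transcriptome Analysis Console, while its normalization, its filters and the build are not given in the labels or header used here. Those deposited values ran from 0.17 to 12.89 and were read as log2, an unstated base on which every change rests. No further normalization was applied, and precision is limited by having 3 arrays per group.

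Of 48226 features, 16098 carried a single symbol from the platform annotation, none several and 32128 none; all Entrez IDs matched RefSeq (GRCh38.p14). The feature of highest mean stood for each of 14884 genes, 779 of which had several. Groups were compared with limma 3.58.1 (lmFit, eBayes) in R 4.3.3, two-sided, with Benjamini-Hochberg adjustment over all genes; genes with adjusted p under 0.05 are said to rise or fall. The fit was tested on simulated data. Same-numbered arrays deviated together from their group means (correlations of 0.682, 0.595 and 0.558; -0.483 to -0.006 for other pairings), so the numbers in the titles were taken to pair the arrays. Values are given for the 6 members of highest level, the 5 largest increases and the 5 largest decreases of each cluster, with listed neighbours and processing genes. Members and lists were chosen with earlier results of these data known. Other block, scaling, filter, feature and array choices were tried.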

Additional observations from a re-analysis of the deposited data

How the results depend on the processing

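No member of either cluster passed the limma test under any alternative run: the replicate block, median centring, quantile normalization, the dimmer 50% of genes left out (which keeps 4 genes of 14q32 and none of 19q13), every feature tested, features averaged per gene, a mean-variance trend, both arrays of replicate 1 left out, or any single array left out. The lowest adjusted p among the 94 was 0.0632 with the block and 0.150 to 0.824 under the others, and at most 6 had an unadjusted p under 0.05. Of all genes 451 passed, against 1959 with the replicate block, 938 with quantile normalization, 989 without the dimmer 50%, 1162 with the trend, and 130 to 477 with a single array left out. Other microRNA genes numbered 4, against 26, 12, 7 and 11 under those 4 settings, 7 without both replicate 1 arrays, and 0 to 6 with an array left out. Processing genes numbered 1, against 5 with the block, 2 with quantile normalization, 3 with the trend, 0 with every feature tested or both replicate 1 arrays left out, and 0 to 1 with an array left out. Neighbouring and imprint genes numbered 3, against 5 with the block and 0 to 3 with an array left out. Causes were not tested. Median changes ranged, with an array left out, from -0.14 to 0.10 in 14q32 and from -0.22 to 0.057 in 19q13, and the 14q32 median was -0.005 without both replicate 1 arrays. Leaving out MIR544B, chosen after seeing the data, gave -0.05. The block changed no call of a member. Signs of single members turned for MIR412 with quantile normalization (-0.068) and for MIR520F (0.35) and MIR654 (-0.09) without both replicate 1 arrays. With an array left out the sign turned for MIR134 (-0.63 to 0.11), MIR323B (-1.09 to 0.028), MIR329-1 (-0.59 to 0.31), MIR412 (-0.32 to 0.50), MIR494 (-1.10 to 0.21), MIR512-2 (-0.31 to 0.045), MIR516B1 (-0.73 to 0.22), MIR518A2 (-0.31 to 0.11), MIR518D (-0.09 to 0.38), MIR520E (-0.77 to 0.22), MIR520F (-0.47 to 0.40), MIR521-2 (-0.59 to 0.50), MIR523 (-0.005 to 0.37) and MIR654 (-0.01 to 0.48). Leaving out 1 array unbalances the same-numbered pairs, and without untreated replicate 1 the median change of all genes was 0.12. With both replicate 1 arrays left out, 25 of the 27 members with values kept their sign. The planned count of SNORD113 and SNORD114 features was not run.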

Other observations

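Further microRNA genes of the 14q32 region that the naming rule leaves out were read after the values were seen. MIR770, which lies within MEG3, had 4.57, 3.58 and 4.35 after decitabine and 4.37, 3.36 and 3.54 in untreated cells, higher in each pair (change 0.41, SE 0.36, limma adjusted p = 0.825, and 0.172 with the replicate block). MIR2392, between DLK1 and MEG3, changed by 0.13 (SE 0.36, adjusted p = 0.999), and MIR1247, beside DIO3, by 0.04 (SE 0.45, adjusted p = 1.00).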
